A study of Homo sapiens with 4 samples.

Results

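MiR-1307 and miR-339 are human microRNAs (miRNAs), each made from 1 hairpin, and each hairpin gives a mature miRNA from its 5′ side (the 5p arm) and another from its 3′ side (the 3p arm). Both arms of both hairpins, 4 of the 1474 miRNAs with a count in any library, were described in parental and acquired radioresistant colorectal cancer cells. They were chosen from these same data, because miR-1307-5p and miR-339-5p differed in opposite directions between parental and radioresistant cells of the 2 lines. The question was whether the 3p arms moved with them. The parental lines, HCT116 and RKO, were established from human colorectal cancers and were not irradiated. Doses of 4 Gy were given to them again and again until 40 Gy had been reached, and the surviving cells, named HCT116-R and RKO-R, then spent 3 weeks or longer without irradiation before they were assayed. The labels give 1 library of small RNA per line, from total RNA of the cultured cells. No difference below has a replicate check, and each one compares libraries, not conditions.

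A miRNA gene is transcribed as a longer RNA that Drosha trims to a hairpin and Dicer cuts to a short duplex of both arms. One strand of the duplex is usually kept in an Argonaute protein as the guide, which pairs with target messenger RNAs through its seed, and the other strand is usually lost. Scaling of the library cancels in the ratio of 5p to 3p counts within a library. Because both arms come from the same transcript, transcription of the gene cancels too if both arms are made, lost and counted in proportion. That condition was not tested here. MiR-339-5p has been studied as a repressor of MDM2, the ligase that lowers p53, and the host gene of miR-1307, ATP5MD, encodes a small subunit associated with mitochondrial ATP synthase.

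The mature sequences are shown because the arms of a hairpin carry different seeds and so read different targets. Capitals mark the seed, bases 2 to 8 from the 5′ end, and the sequences are those of RefSeq on GRCh38.p14, in which all 4 arms were matched by name.
hsa-miR-1307-5p: uCGACCGGaccucgaccggcu
hsa-miR-1307-3p: aCUCGGCGuggcgucggucgug
hsa-miR-339-5p: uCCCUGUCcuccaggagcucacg
hsa-miR-339-3p: uGAGCGCCucgacgacagagccg

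The 4 seeds differ from each other, and 0 other mature miRNAs of the RefSeq table carried any of them. Each mature sequence was found in full in 1 of the 1562 hairpins of the table, its own. The longest run shared with another hairpin was 10 bases for miR-1307-5p, 10 for miR-1307-3p, 11 for miR-339-5p and 9 for miR-339-3p. The arms were rich in G and C. The GC content was 71.4% in miR-1307-5p, 72.7% in miR-1307-3p, 65.2% in miR-339-5p and 69.6% in miR-339-3p, against a median of 50% over 633 miRNAs with at least 10 counts in a library and a known sequence.

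The MIR1307 hairpin lies on the minus strand at chr10:103394253-103394401. It overlaps the untranslated part of an exon of ATP5MD on the same strand (GENCODE release 29), with the 5p arm at chr10:103394341-103394361 and the 3p arm at chr10:103394301-103394322. The MIR339 hairpin lies on the minus strand at chr7:1022933-1023026, in an intron of C7orf50, with the 5p arm at chr7:1022990-1023012 and the 3p arm at chr7:1022955-1022977. Neither hairpin overlaps an annotated hairpin of the opposite strand. In the predicted fold of lowest energy, 16 base pairs joined the arms of MIR1307 and 16 joined those of MIR339. The first base is U in miR-1307-5p, miR-339-5p and miR-339-3p, and A in miR-1307-3p. Among 281 hairpins with at least 20 counts and sequences of both arms, the more abundant arm began with U in 50.5% and the less abundant arm in 28.5%.

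The counts summed to between 6818497 and 7140460 per library, so that 3 counts, the floor used here, were worth 0.420 to 0.440 CPM, the unit in which levels are given (counts scaled to 1e6 per library). All 16 values of the 4 arms were above 0. Intervals are 95% Wilson intervals of the share and cover counting error only. The labelled cell type was checked with 7 miRNAs of colon epithelium, which summed to 47095 and 45826 CPM in HCT116 and HCT116-R but to 2845 and 2866 CPM in RKO and RKO-R. MiR-200c-3p, an epithelial miRNA, stood at 42717 and 42008 CPM in HCT116 and HCT116-R but at 90.9 and 206 in RKO and RKO-R. This 1 miRNA carried most of the difference in the sum. MiR-200a-3p was at 2113, 1665, 1840 and 1586 CPM in the order of the libraries above, miR-192-5p at 226, 202, 220 and 323, and miR-194-5p at 112, 65.1, 75.2 and 119, and the ranges of each overlapped between the lines. MiR-200b-3p was at 956, 664, 616 and 626 CPM, higher in both HCT116 libraries than in the RKO libraries. MiR-141-3p, made from the same cluster as miR-200c-3p, differed as it did, at 972, 1220, 2.38 and 5.93 CPM. MiR-215-5p was at 0 in HCT116, RKO and RKO-R. The list of 7 miRNAs of blood, stroma, liver and red cells summed to 408, 187, 30.7 and 84.6 CPM in the same order, with 7, 7, 5 and 6 of them listed. MiR-143-3p, of stroma, made up 254, 122, 7.14 and 75.5 CPM of these sums. The list did not move as 1: from RKO to RKO-R, miR-122-5p went from 15.3 to 2.60 CPM and miR-451a from 7.56 to 4.63. The part of these 7 miRNAs in the results was not tested.

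The less abundant arm of its hairpin, hsa-miR-1307-5p, was counted 414 times in HCT116 but 16 times in HCT116-R, and 89 times in RKO but 932 times in RKO-R. Its levels in this order were 60.7 CPM (55.1 to 66.8), 2.35 (1.44 to 3.81), 12.5 (10.1 to 15.3) and 134.8 (126.4 to 143.8). The arm was thus lowest in the radioresistant library of one line and highest in that of the other, and no 2 of the 4 intervals overlapped. It was 25.1-fold lower in HCT116-R than in HCT116 and 10.8-fold higher in RKO-R than in RKO, a span of 57.5-fold between the lowest and the highest library.

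The abundant arm, hsa-miR-1307-3p, was counted 3333 times in HCT116 against 4343 in HCT116-R, and 3172 times in RKO against 2816 in RKO-R, which gave levels of 488 CPM (472 to 505), 637 (618 to 656), 444 (429 to 460) and 407 (393 to 423). The highest and the lowest library differed by 1.56-fold, and the order, HCT116-R above HCT116, RKO and RKO-R, was not that of the 5p arm. The intervals did not overlap, so neighbours in this order differed by more than counting error.

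For hsa-miR-339-5p there were 17 counts in HCT116 but 216 in HCT116-R, and 696 in RKO but 95 in RKO-R, or 2.49 CPM (1.56 to 3.99), 31.7 (27.7 to 36.2), 97.5 (90.5 to 105.0) and 13.7 (11.2 to 16.8). This arm was high where miR-1307-5p was low and the reverse: it was 12.4-fold higher in HCT116-R than in HCT116 and 7.06-fold lower in RKO-R than in RKO. Its span over the libraries was 39.1-fold, and its 4 intervals did not overlap.

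The other arm, hsa-miR-339-3p, gave 1028 counts in HCT116 against 712 in HCT116-R, and 876 in RKO against 762 in RKO-R, or 150.7 CPM (141.7 to 160.2), 104.4 (97.0 to 112.4), 122.7 (114.8 to 131.1) and 110.2 (102.7 to 118.3). The span was 1.44-fold. In the order of levels, HCT116 stood above RKO, RKO-R and HCT116-R, and the intervals of RKO and RKO-R overlapped, as did those of RKO-R and HCT116-R. Taken directly, the log2 ratio of RKO-R to RKO was -0.15, with a counting interval from -0.29 to -0.014, which leaves out 0. Over the 384 miRNAs with at least 10 counts in every library, the median span was 2.57-fold, and 15.1% of them had a smaller span than miR-1307-3p and 9.90% a smaller one than miR-339-3p.

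**Figure D1:**
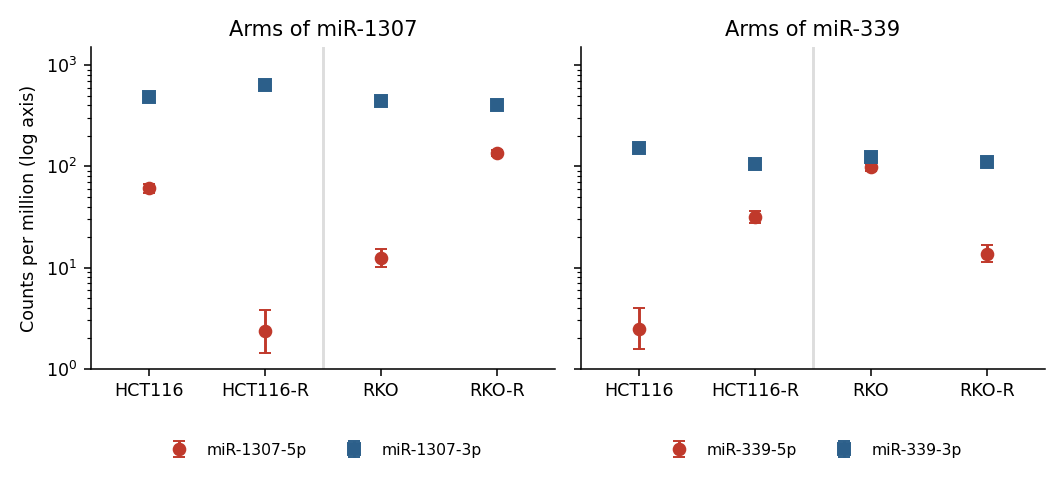
Levels of the 5p (circles) and 3p (squares) arms of miR-1307 and miR-339 in CPM, on a log axis, in the 1 library of each line; bars are 95% Wilson intervals. The 3p arms lie between 407 and 637 CPM and between 104.4 and 150.7 CPM, while the 5p arms run from 2.35 to 134.8 CPM and from 2.49 to 97.5 CPM.

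Each radioresistant library was then set against its parental library as a log2 ratio of CPM with 0.5 counts added. A standard error (SE) that adds a biological coefficient of variation (BCV) of 0.2 to the counting error is given, since 0.2 is the value named in the methods of the study. It is an assumption, and no replicate measured it. The log2 fold change of miR-1307-5p was -4.65 (SE 0.55) between HCT116-R and HCT116 and 3.43 (SE 0.44) between RKO-R and RKO. That of miR-339-5p was 3.63 (SE 0.54) and -2.82 (SE 0.44). The 3p arms stayed within 2-fold. In the same order, miR-1307-3p had log2 fold changes of 0.38 (SE 0.41) and -0.13 (SE 0.41). Those of miR-339-3p were -0.53 (SE 0.41) and -0.15 (SE 0.41). In the HCT116 pair each 3p arm had the sign opposite to that of its 5p arm. The counting intervals there, 0.32 to 0.45 and -0.67 to -0.39, left out 0, and both signs held with every scaling tried. The 3p differences in the RKO pair turned positive with other scalings, at 0.11 and 0.08 with TMM, the trimmed mean scaling of edgeR, and at 0.24 and 0.21 with the size factors of DESeq2.

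The 5p arms were past 2-fold in both pairs, as they were chosen to be, and the 3p arms in neither. In the HCT116 pair, 15.3% of 639 miRNAs that reached 10 counts in 1 library were higher by at least 2-fold and 9.39% were lower. In the RKO pair, 9.46% of 539 were higher and 23.6% lower. Of the RKO miRNAs past 2-fold, 28.7% were higher, and this share was 39.9% with TMM and 45.6% with DESeq2, which moved the median of all miRNAs by 0.24 and 0.36 on the log2 scale. Of 465 miRNAs that reached 10 counts in both pairs, 36 were past 2-fold in opposite directions, or 7.74%, and 12 were past 4-fold in opposite directions, or 2.58%. MiR-1307-5p and miR-339-5p belong to both counts by choice.

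The ratio of the arms does not depend on the scaling. The log2 ratio of miR-1307-5p to miR-1307-3p was -3.01 in HCT116 (95% interval from the counts, -3.15 to -2.86), -8.04 in HCT116-R (-8.74 to -7.34), -5.15 in RKO (-5.45 to -4.84) and -1.59 in RKO-R (-1.70 to -1.49). The 5p arm held 11.0% of the hairpin's counts in HCT116 (Wilson interval, 10.1 to 12.1), 0.367% in HCT116-R (0.226 to 0.595), 2.73% in RKO (2.22 to 3.35) and 24.9% in RKO-R (23.5 to 26.3). In HCT116-R there were 271 counts of the 3p arm for each count of the 5p arm, and in RKO-R there were 3.02.

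For miR-339 the log2 ratio was -5.88 in HCT116 (-6.56 to -5.20), -1.72 in HCT116-R (-1.94 to -1.50), -0.33 in RKO (-0.48 to -0.19) and -2.997 in RKO-R (-3.30 to -2.69). Its 5p arm held 1.63% of the counts in HCT116 (1.02 to 2.59), 23.3% in HCT116-R (20.7 to 26.1), 44.3% in RKO (41.8 to 46.7) and 11.1% in RKO-R (9.15 to 13.4). The 3p arm was thus the more abundant one of both hairpins in all 4 libraries, and in RKO the arms of miR-339 came nearest to equal counts. With both arms summed, miR-1307 ranged from 457 CPM (RKO) to 639 CPM (HCT116-R), and miR-339 from 124 CPM (RKO-R) to 220 CPM (RKO).

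**Figure D2:**
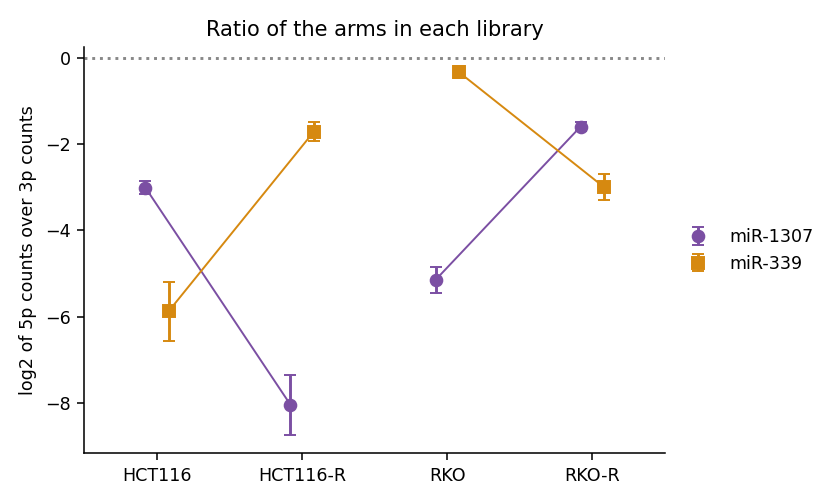
The log2 ratio of 5p to 3p counts of miR-1307 (circles) and miR-339 (squares) in each library, with 95% intervals from the counts; lines join a parental library to its radioresistant library, and the dotted line marks equal arms. The lines of the hairpins cross in both pairs: miR-1307 goes from -3.01 to -8.04 and from -5.15 to -1.59, and miR-339 from -5.88 to -1.72 and from -0.33 to -2.997.

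Between parental and radioresistant libraries, the log2 ratio of miR-1307 differed by -5.03 (-5.75 to -4.32) for HCT116 and by 3.55 (3.23 to 3.87) for RKO. For miR-339 the differences were 4.16 (3.44 to 4.87) and -2.67 (-3.004 to -2.33). With the assumed BCV added for each count, the SE lay between 0.60 and 0.68. Nearly all of each difference was that of the 5p arm, since the 3p arms differed by at most 0.53 in size on the log2 scale.

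Other hairpins give the scale of these values. With both arms named and at least 20 counts of the arms together in both libraries, 236 hairpins of the HCT116 pair were compared, and 184 of the RKO pair. The median size of the difference in log2 ratio was 0.72 and 0.68. A difference of at least 2 was found for 35 hairpins of the HCT116 pair (14.8%) and 25 of the RKO pair (13.6%), miR-1307 and miR-339 included. By size, miR-1307 ranked 5 in both pairs, and miR-339 ranked 6 in the HCT116 pair but 16 in the RKO pair.

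Of the 177 hairpins compared in both pairs, 5 differed by at least 2 in opposite directions (2.82%): miR-1307, miR-339, miR-532, miR-1226 and miR-301a. Another 3 differed by at least 2 in the same direction (1.69%): miR-423, miR-3184 and miR-3529. MiR-423 and miR-3184 are encoded on opposite strands of a locus, miR-3529 lies opposite a hairpin of miR-7, and how strand was used in counting is not given in the sources used here. The difference between the pairs was 8.59 (7.80 to 9.37) for miR-1307 and -6.82 (-7.62 to -6.03) for miR-339, as RKO pair minus HCT116 pair, against a median size of 1.06. These were the largest sizes among the 177 hairpins, which were not a free draw, since miR-1307 and miR-339 were chosen for opposite differences.

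**Figure D3:**
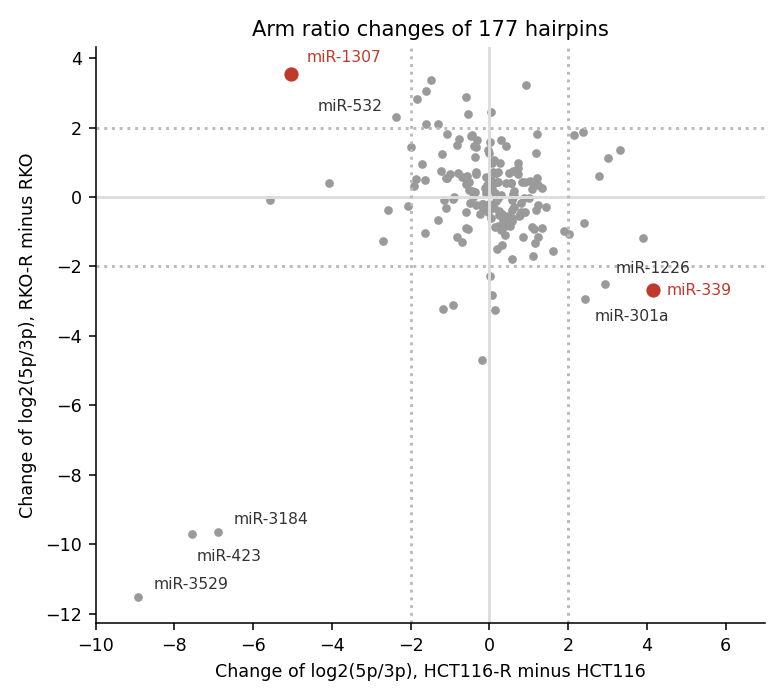
Change of the log2 ratio of 5p to 3p counts from parental to radioresistant library for HCT116 (x axis) and RKO (y axis); each point is 1 of 177 hairpins, and dotted lines mark changes of 2. MiR-1307 lies at -5.03 and 3.55, miR-339 at 4.16 and -2.67, and the other labelled hairpins are past 2 in both pairs.

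The hairpins that came next by the size of an opposite difference were miR-1226, miR-301a and miR-3679. MiR-1226-5p had 1, 12, 24 and 3 counts in HCT116, HCT116-R, RKO and RKO-R, beside 61, 66, 141 and 115 counts of miR-1226-3p. MiR-301a-5p had 2, 9, 33 and 6 counts, beside 2674, 1901, 2948 and 4416 of miR-301a-3p. Both 5p arms had more counts in HCT116-R than in HCT116 and fewer in RKO-R than in RKO, as miR-339-5p did, at counts that are at or under the floor of 3 in at least 1 library. MiR-3679-3p had 4 counts in HCT116 and 0 in the other libraries, so the ratio of that hairpin rests on the 0.5 counts added.

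Whether a 3p arm moved with its 5p arm was counted over hairpins with at least 10 counts of each arm in 1 library of the pair. In the HCT116 pair, 8 of 146 such hairpins had a 5p arm past 4-fold. Beside it, the 3p arm was within 2-fold in 6 hairpins (miR-1307, miR-339, miR-423, miR-374b, miR-1226 and miR-675), past 2-fold in the same direction in 2 (miR-199a and miR-30a) and past 2-fold in the other direction in 0. In the RKO pair, 11 of 125 hairpins had a 5p arm past 4-fold, and the 3p arm was within 2-fold in 7, past 2-fold in the same direction in 4 (miR-197, miR-199a, miR-210 and miR-34c) and past 2-fold in the other direction in 0. Of those 4, miR-199a-5p and miR-34c-5p had 0 counts in RKO and 86 and 10 in RKO-R, and with at least 100 counts of each arm required, 0 of the 4 were left. The shares of 3p arms within 2-fold, 75.0% and 63.6%, include the chosen members. They also include miR-423 in both pairs and miR-374b in the HCT116 pair. These hairpins are encoded opposite other miRNAs, so the counts of their arms taken singly are uncertain. Among all miRNAs that reached 10 counts, 15.3% were higher and 9.39% lower past 2-fold in the HCT116 pair. In the RKO pair these were 9.46% and 23.6%. Most miRNAs thus stayed within 2-fold too, so these shares are not read as a trait of the 3p arms. In miR-210, a miRNA induced by hypoxia, the 5p arm went from 10 to 44 counts and the 3p arm from 51 to 336. In miR-199a of the HCT116 pair the arms went from 256 to 19 and from 194 to 32 counts, both past 2-fold, where miR-1307 was past 2-fold in 1. MiR-199b-3p had the same counts as miR-199a-3p in every library, so the 3p counts cannot be assigned to miR-199a alone. MiR-199b-5p went from 46 to 23 counts in this pair.

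**Figure D4:**
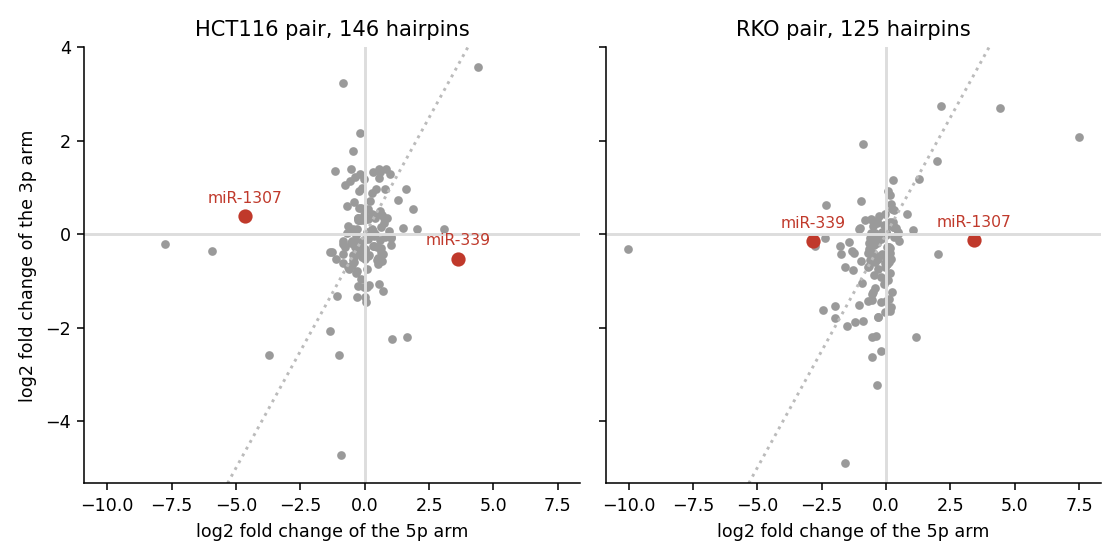
Log2 fold change of the 5p arm (x axis) and of the 3p arm (y axis) between radioresistant and parental library, for 146 hairpins of the HCT116 pair and 125 of the RKO pair with at least 10 counts of each arm in 1 library; the dotted line marks equal changes. MiR-1307 and miR-339 lie far out on the x axis, at -4.65 and 3.63 for HCT116 and at 3.43 and -2.82 for RKO, and near 0 on the y axis.

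In both hairpins the arm past 2-fold was the less abundant one. Among the hairpins whose log2 ratio differed by at least 2, the less abundant arm changed more in 31 of 35 for the HCT116 pair (88.6%) and in 19 of 25 for the RKO pair (76.0%). It was the 5p arm that changed more in 13 of 35 and 12 of 25. Many of these hairpins have a scarce arm with few counts, whose ratio rests in part on the 0.5 counts added. MiR-1307 and miR-339 are among the 35 and the 25, but their 5p arms had at least 16 counts in every library. Their differences of ratio stayed within the counting intervals with no count added. The share over all compared hairpins was not counted, so these shares have no background. In alternatives chosen after the data had been seen, the numbers were 17 of 22 (77.3%) and 13 of 19 (68.4%) with 1 count added, and with at least 10 counts of each arm in 1 library they were 9 of 10 (90.0%) and 9 of 12 (75.0%).

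The other arm was also looked up for the 36 miRNAs past 2-fold in opposite directions. It was listed for 24 of them and reached 10 counts in both pairs for 15. Among these 15, the other arm stayed within 2-fold in both pairs for 11, which include miR-1307-5p, miR-339-5p, miR-532-3p, miR-675-5p and let-7g-3p. It differed with its partner in both pairs for 2, which are the arms of miR-199a, and the remaining 2 showed neither pattern. The 36 are names and not separate reads, since some share all their counts. MiR-365a-3p, among the 11, and miR-365b-3p, among the remaining 2, both had 18, 45, 54 and 11 counts. MiR-199a-3p and miR-199b-3p were also alike. No share over all miRNAs was taken for the other arm, so the 11 of 15 have no background here. Of the 36, 25 were higher in HCT116-R and lower in RKO-R, as miR-339-5p was, and 11 were the reverse, as miR-1307-5p was.

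A fixed list of 20 hairpins, drawn up for use of both arms, was set beside them. Some had few counts of 1 arm in these libraries, such as miR-361-3p, with 2 in HCT116 and 5 in RKO. In each pair 19 were compared, with a median size of the difference in log2 ratio of 0.82 for HCT116 and 0.68 for RKO, against 0.72 and 0.68 over all hairpins. A difference of at least 2 was found for 3 of the HCT116 pair (1 up and 2 down) and 2 of the RKO pair (1 up and 1 down). The largest were those of miR-423 (-7.54), miR-532 (-2.36) and miR-542 (2.14) in the HCT116 pair, and of miR-423 (-9.70), miR-532 (2.30) and miR-151a (1.49) in the RKO pair. MiR-542-3p was at the floor, with 3 counts in HCT116 and 1 in the radioresistant library. MiR-574, with at least 3236 counts of each arm in every library, differed by 1.12 and -0.91.

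The miRNAs with levels most like those of the 5p arms were found by the Euclidean distance of log2(CPM + 0.5), centred over the 4 libraries, among 345 miRNAs with at least 100 counts in a library. Nearest to miR-339-5p were miR-4521 (distance 0.89), miR-532-3p (1.08) and miR-4286 (1.16). In the order HCT116, HCT116-R, RKO and RKO-R, miR-4521 had 676, 3474, 11563 and 1623 counts, and miR-532-3p had 96, 432, 1348 and 231. Both follow the order of miR-339-5p in all 4 libraries. Nearest to miR-1307-5p were miR-374b-5p (3.03), miR-103a-3p (3.16) and miR-29a-5p (3.21), at distances near 3, so no miRNA came as close to it as miR-4521 did to miR-339-5p. MiR-374b-5p, with 1118, 18, 1431 and 1202 counts, was lower in HCT116-R as miR-1307-5p was, but was not higher in RKO-R than in RKO. MiR-103a-3p, with 275, 90, 1001 and 7928 counts, was lower in HCT116-R and higher in RKO-R. Unlike miR-1307-5p, it was higher in RKO than in HCT116. MiR-374b-5p and miR-103a-3p are encoded opposite other miRNAs, so their counts taken singly are uncertain.

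The 3p arms had much closer neighbours, but any miRNAs whose centred levels vary little over the libraries lie near each other. MiR-624-5p lay at a distance of 0.12 from miR-1307-3p, and miR-200a-3p, an epithelial miRNA, at 0.14 from miR-339-3p. As for the partner arms, miR-1307-5p stood at rank 298 of 345 from miR-1307-3p, and miR-339-5p at rank 282 from miR-339-3p. Ranked from the 5p arms, miR-1307-3p stood at 185 and miR-339-3p at 175. The 5p arms were chosen for large differences, so their distance from a flat profile was set by that choice. The distance between the 5p arms of the 2 hairpins was 7.06, which put miR-1307-5p at rank 295 from miR-339-5p.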

How the data were processed

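Small RNA of 18–30 nt was sequenced on the BGISEQ-500 platform from 4 lines, with 1 library per line. Per mature miRNA, the authors deposited the raw count of reads. The submitters' processing notes name Bowtie2 and hg38. The counter, the miRNA annotation, the use of strand and the collapsing of unique molecular identifiers are not given in the sources used here. Where a table did not list a miRNA, 0 counts were taken.

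Tables were joined by name, and counts were divided by the library total to give CPM. Log ratios had 0.5 counts added. No p-value is given, because each line had 1 library and the members were chosen from these contrasts. The members, the lists and the rules were chosen with earlier results of these data known. Named miRNAs were the 4 arms, the 3 nearest profiles of each 5p arm, the 3 other hairpins with the largest opposite difference of arm ratio, miRNAs that share a seed, and the 3 largest of the list of 20 hairpins. Other miRNAs, and the neighbours of the 3p arms, were named after their values were seen.

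The alternatives, each tried for the counts of miRNAs or the log ratios it bears on, were TMM and the exact test of edgeR 4.0.16 at a BCV of 0.2 (Benjamini-Hochberg adjusted p below 0.05), size factors of DESeq2 1.42.0, other counts added, and other filters. Hairpins were folded with RNAfold 2.7.2. Python 3.11.15 and R 4.3.3 were used.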

Additional observations from a re-analysis of the deposited data

Results flagged for a closer look

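The 2 line pairs differed in opposite directions in both 5p arms and in both arm ratios. The log2 fold change of miR-1307-5p was -4.65 for HCT116 and 3.43 for RKO, and that of miR-339-5p was 3.63 and -2.82. The 5p to 3p log2 ratio of miR-1307 differed by -5.03 and 3.55, and that of miR-339 by 4.16 and -2.67. With 1 library per line, the difference between the pairs was not tested, and the members were chosen for it.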

How the results depend on the processing

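The 4 differences of arm ratio kept their direction and stayed within their counting intervals with 1 count or no count added, and so did all log2 fold changes of the arms. Of 94 values under an alternative, 62 stayed within the counting interval of the reported log2 value or, for a count, within 1.5 times the reported count, and 32 did not. With TMM in the RKO pair, miR-1307-3p moved from -0.13 to 0.11 and miR-339-3p from -0.15 to 0.082. With DESeq2 size factors they were 0.24 and 0.21, the 5p arms of miR-1307 and miR-339 were 3.79 and -2.46 in the RKO pair, and miR-1307-3p was 0.28 in the HCT116 pair. These shifts are those of the scaling, since arms of a hairpin move alike under it. Counts of miRNAs past 2-fold (98 higher and 60 lower in HCT116-R, 51 and 127 in RKO-R) became 383, 223, 226 and 348 without a filter, 21, 29, 17 and 45 at 100 counts, 37, 21, 21 and 38 at 4-fold, and 31, 22, 29 and 35 in the exact test of edgeR. Hairpins with a ratio difference of at least 2 went from 35 to 20 and from 25 to 16 at 100 counts of the arms together, and from 35 to 22 with 1 count added in the HCT116 pair. Without hairpins that overlap one of the opposite strand, an alternative added after the data had been seen, 29 and 21 were left. Of the hairpins in which the less abundant arm changed more (31 and 19), 17 were left in the HCT116 pair with 1 count added, and 9 and 9 with 10 counts of each arm required, also added later. At 100 counts of each arm, the 3p arms that moved with a 5p arm past 4-fold went from 2 to 1 and from 4 to 0, and those within 2-fold from 7 to 4 in the RKO pair. Libraries were compared within each line. The labels give no replicate numbers, so no replicate block was fitted and no replicate could be left out. A fit of line and radioresistance over the 4 libraries, with 1 residual degree of freedom, was not run. At 16 and 17 counts, the lowest 5p values have the widest intervals.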
